A study of Mus musculus with 12 samples.

Results

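Cells of day 7.5 mouse embryos that lacked Endoglin on their surface were compared by whether they carried Flk1. The comparison uses 6 of the 12 arrays of the series, taken by their titles: 3 labelled Eng-Flk1+ and 3 labelled Eng-Flk1-. Whole CD-1 embryos, about 300 from 25 litters, were pooled, stained with antibodies to both surface proteins and sorted. Each sample held 3000 sorted cells, and its cDNA was amplified by a global PCR method before hybridisation to its own 1-colour Agilent array. The other 6 arrays hold the Endoglin-positive cells with Flk1 (Eng+Flk1+, n = 3) and without it (Eng+Flk1-, n = 3), and they are used to ask whether a Flk1 difference was also measured where Endoglin was present. All embryos were untreated, no genotype other than the strain is given, and since all fractions came from 1 pool the p-values below measure the spread between sorted samples, which may be technical.

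Flk1, the product of Kdr, is the main receptor tyrosine kinase through which vascular endothelial growth factor acts. In the gastrulating mouse it appears on mesoderm leaving the primitive streak, and cells that carry it give rise to endothelium, to blood, and to part of the heart and smooth muscle. Embryos without it form neither vessels nor blood islands. Endoglin, the product of Eng, is a co-receptor for BMP9 and other TGF-beta ligands that rises as endothelium and early blood precursors form. Cells with neither protein at this stage include epiblast and its neural derivatives, the visceral endoderm that wraps the embryo, and red cells.

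A level below is the log2 processed signal of a probe minus the 75th percentile of its array, so 0 is a bright spot and 1 unit is a doubling. A difference is the Eng-Flk1+ mean minus the Eng-Flk1- mean, with its standard error from limma. Of 27745 gene names, the 22844 that the scanner marked well above background on every array of some fraction were tested. A gene is said to have risen or fallen at an adjusted p under 0.05. By that rule 377 genes rose in Eng-Flk1+ (1.65% of those tested) and 62 fell (0.271%). All counts of called list members below are to be read beside these shares. With the median of each array in place of its 75th percentile the split was 199 higher and 163 lower, and after quantile normalization 356 and 299, so the preponderance of rises depended on the scaling. The median difference of all genes was -0.13 with the 75th percentile and -0.73 with the median.

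The Eng-Flk1- arrays stood apart from the other 9. Between 66.5% and 76.3% of their spots were well above background, against 81.9% to 83.3% in Eng-Flk1+, and their pairwise correlations across genes were 0.674 to 0.719, against 0.851 to 0.911. The median within-fraction SD of a gene was 1.02 in Eng-Flk1- and 0.58 in Eng-Flk1+. Some genes spread widely within Eng-Flk1-: Snap29, picked after its values were seen, lay at -4.23, -5.60 and 4.69. The part of this lower signal in the differences was not tested. All 3 Eng-Flk1- arrays lay on 1 slide with Eng-Flk1+ replicate 1, while Eng-Flk1+ replicates 2 and 3 lay on another. With the slide as a block, an estimate that rests on Eng-Flk1+ replicate 1 alone, 16 genes rose and 0 fell (limma; 2095 at an unadjusted p under 0.05). Within that 1 slide 26 rose and 3 fell. Dropping Eng-Flk1- replicate 2 raised the number of calls to 1001. Dropping replicate 1, 2 or 3 of Eng-Flk1+ lowered it to 172, 250 or 169. Of the 82 called genes named below, 42 kept their calls with each of the 6 arrays left out in turn, and the others are said to have lost theirs.

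The transcripts of the sorted proteins were examined first. Kdr lay at 0.90, 0.47 and 1.96 on the Eng-Flk1+ arrays and at -4.41, -7.28 and -6.90 on the Eng-Flk1- arrays. The fractions did not overlap, and the difference was 7.31 ± 0.96 (limma adjusted p = 0.00522). The Kdr probe, at chr5:76214981-76215040 on the minus strand (build mm8), passed the background flag on 1 Eng-Flk1- array, and its other values there are near background. With normexp background correction it was 3.64, and within slide 1, with 1 Eng-Flk1+ array, it was 7.10 ± 1.43 with the call lost (limma adjusted p = 0.144). Eng lay at 0.20, -0.36 and 1.62 in Eng-Flk1+ and at 0.13, -1.47 and -0.12 in Eng-Flk1-. These overlap, and the difference of 0.98 ± 0.69 did not pass (limma adjusted p = 0.474).

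Genes of forming vessels accompanied Kdr, and several did so whether or not the cells carried Endoglin. Of the 439 genes called among Endoglin-negative cells (1.92% of those tested), 22 were called in the same direction between Eng+Flk1+ and Eng+Flk1-, which share no array with them. Both differences come from 1 fit with 1 spread per gene, and from 1 pool of embryos, so the 2 sets of calls are not independent. Eng+Flk1+ replicates 1 and 2 lay on the slide of Eng-Flk1+ replicates 2 and 3, which held no array without Flk1. Eng+Flk1+ replicate 3 and all 3 Eng+Flk1- arrays lay on another slide. The part of the slide in the shared calls was not tested. Of all genes tested, 0.153% were called higher with Flk1 among Endoglin-positive cells and 0.114% lower. The shared calls are 5.01% of the 439 and 36.1% of the 61 genes called among Endoglin-positive cells. The 22 comprise 17 genes higher with Flk1 and 5 lower, and 6 of them are known only by clone, accession or probe identifiers. Those higher in both with a gene symbol were Kdr, Flt4, Mef2c, Sox18, Egfl7, Plvap, Rhoj and Centd3 (now Arap3), and, named after their values were seen, Zfp711, Npr3, Agpat2 and 1500041B16Rik (now Cnrip1). Of these, Flt4, Egfl7, Plvap, Npr3, Agpat2 and Cnrip1 lost their calls among Endoglin-negative cells without 1 Eng-Flk1+ array (limma adjusted p of 0.0583 to 0.119 at the highest). Of the 3 measured probes of Npr3, 2 were higher in Eng-Flk1+, and the lowest differed by -1.14.

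Many vessel genes carry binding sites for Ets factors such as Etv2 in their control regions. The 250 bases before the start of 8 of the 17 genes higher in both could be read from RefSeq promoters (GRCm38.p6). The Ets letters GGAAGT, on either strand, were found in 5 of the 8, namely Kdr, Mef2c, Rhoj, Egfl7 and Cnrip1. They stand in 20.0% of all 27025 RefSeq promoters over the same length, with 1 start taken for each gene in both counts. A GATA motif (AGATAA, either strand) was in 0 of the 8 and in 10.2% of all promoters, and an HNF1 motif (GTTAAT, either strand) was in 2 of the 8, Cnrip1 and Npr3, and in 6.6% of all promoters. Stretches around the match are shown for the 3 of these genes that have 1 annotated start, because they are among those that rose with Flk1 in both settings. Each is given 5′ to 3′ on the strand of its gene with the match in capitals, and it ends before the start site.
Kdr: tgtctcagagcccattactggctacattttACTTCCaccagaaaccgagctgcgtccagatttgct
Rhoj: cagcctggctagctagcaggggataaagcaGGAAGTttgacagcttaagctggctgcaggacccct
Cnrip1: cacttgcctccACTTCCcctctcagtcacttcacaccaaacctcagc
The Kdr stretch is chr5:75978637-75978702 (minus strand), the Rhoj stretch chr12:75308156-75308221 (plus) and the Cnrip1 stretch chr11:17051609-17051655 (plus). The match ends 211 bases before the start of Kdr, 121 before that of Rhoj and 233 before that of Cnrip1. In Kdr and Cnrip1 the letters read on the opposite strand, as ACTTCC. A match of 6 letters describes the sequence and is not a measured binding site.

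Receptors and ligands of the VEGF family were taken first by role. Of 12 members tested 3 rose and 0 fell, beside 1.65% and 0.271% of all genes. The list median was 1.86, against -0.13 over all genes. With normexp 1 of the 12 rose. Flt4, the VEGF receptor of lymphatic and early endothelium, lay at -1.1, -0.54 and -0.17 in Eng-Flk1+ and at -6.95, -5.36 and -6.05 in Eng-Flk1-. It passed the background flag on 1 Eng-Flk1- array. All 3 Eng-Flk1+ arrays were higher, by 5.51 ± 0.93 (limma adjusted p = 0.0161), and the difference was 6.27 among Endoglin-positive cells. Nrp2, a co-receptor of Flt4, lay at 1.11, -0.20 and 1.23 against -3.58, -4.16 and -2.91, a rise of 4.26 ± 0.78 (limma adjusted p = 0.0218). Nrp2 differed by 1.68 among Endoglin-positive cells, which did not pass (limma adjusted p = 0.787). The difference of those Nrp2 effects, 2.59 ± 1.1, did not pass either (limma adjusted p = 0.444). Without Eng-Flk1+ replicate 3 the calls of Flt4 and Nrp2 were lost (limma adjusted p = 0.0714 and 0.0995).

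Transcription factors that open the blood and vessel programme rose. Etv2, an Ets factor without which neither lineage forms, lay at 3.72, 2.69 and 4.01 in Eng-Flk1+ and at -2.39, -2.09 and -2.74 in Eng-Flk1-. The rise was 5.88 ± 0.51 (limma adjusted p = 0.000509), and within slide 1 it was 6.13. That slide holds 1 Eng-Flk1+ array, so the error there (SE 0.76, limma adjusted p = 0.0242) is pooled over the other arrays and assumes that the lone array varies like them. Among Endoglin-positive cells the Etv2 difference was 2.96 and just missed the threshold (limma adjusted p = 0.0502). Tal1, the partner of Lmo2 in starting blood, lay at 3.56, 2.99 and 3.83 against -0.59, -1.74 and 1.39. Its rise of 3.78 ± 0.71 (limma adjusted p = 0.0255) stood beside 3.67 among Endoglin-positive cells. Hhex, a homeobox gene of early endothelium and endoderm, rose by 4.34 ± 0.63 (limma adjusted p = 0.00806). These were the 3 of 18 blood and hemangioblast regulators that rose, beside 1.65% of all genes, and 0 fell. The list median was 1.42, or 0.81 with median scaling and 0.82 with normexp. On the 6 arrays alone, 1 of the 18 rose, and the call of Tal1 was lost without Eng-Flk1+ replicate 3 (limma adjusted p = 0.110).

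Among factors of endothelial identity, Sox18 lay at 0.09, -1.46 and -0.68 in Eng-Flk1+ and at -5.21, -4.95 and -4.50 in Eng-Flk1-. Its rise of 4.2 ± 0.56 (limma adjusted p = 0.00556) was 7.68 among Endoglin-positive cells, and the difference of -3.48 ± 0.80 between them did not pass (limma adjusted p = 0.127). Mef2c, a regulator of vessel and heart muscle genes, was tightly grouped in Eng-Flk1+ at -0.68, -0.65 and -0.66, against -5.54, -4.58 and -7.25, where 2 arrays passed the background flag. It rose by 5.13 ± 0.67 (limma adjusted p = 0.00492) and by 5.25 among Endoglin-positive cells. Egfl7, a secreted protein of endothelium, rose by 3.83 ± 0.66, and Plvap, which spans the openings of permeable vessels, by 3.05 ± 0.62. The Egfl7 call was lost without Eng-Flk1+ replicate 1 (limma adjusted p = 0.0759) and the Plvap call without Eng-Flk1+ replicate 3 (0.119).

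The rest of the endothelial list did not pass where Endoglin was absent. Of 20 endothelial genes 4 rose and 0 fell, beside 1.65% and 0.271% of all genes. The median was 0.89, against 2.58 among Endoglin-positive cells, where 6 rose. With median scaling the median was 0.29 and 2 rose, and on the 6 arrays alone 2 rose. Pecam1, an adhesion molecule of the vessel wall, averaged -1.26 ± 0.36 on the Eng-Flk1+ arrays (SD, n = 3), -0.61 ± 1.87 on the Eng-Flk1- arrays and 2.22 ± 0.20 on the Eng+Flk1+ arrays. The mean level of the 20 genes lay between -0.73 and -0.33 on the Eng-Flk1+ arrays, between -2.72 and -2.12 on the Eng-Flk1- arrays and between 0.43 and 1.28 on the Eng+Flk1+ arrays. Of the 4 that rose, Acvrl1 is the type I receptor that signals with Endoglin. It lay at 0.83, 2.14 and 1.05 against -2.49, -4.25 and -4.22, a rise of 4.99 ± 0.95 (limma adjusted p = 0.0267; 0.0919 without Eng-Flk1+ replicate 2).

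**Figure D1:**
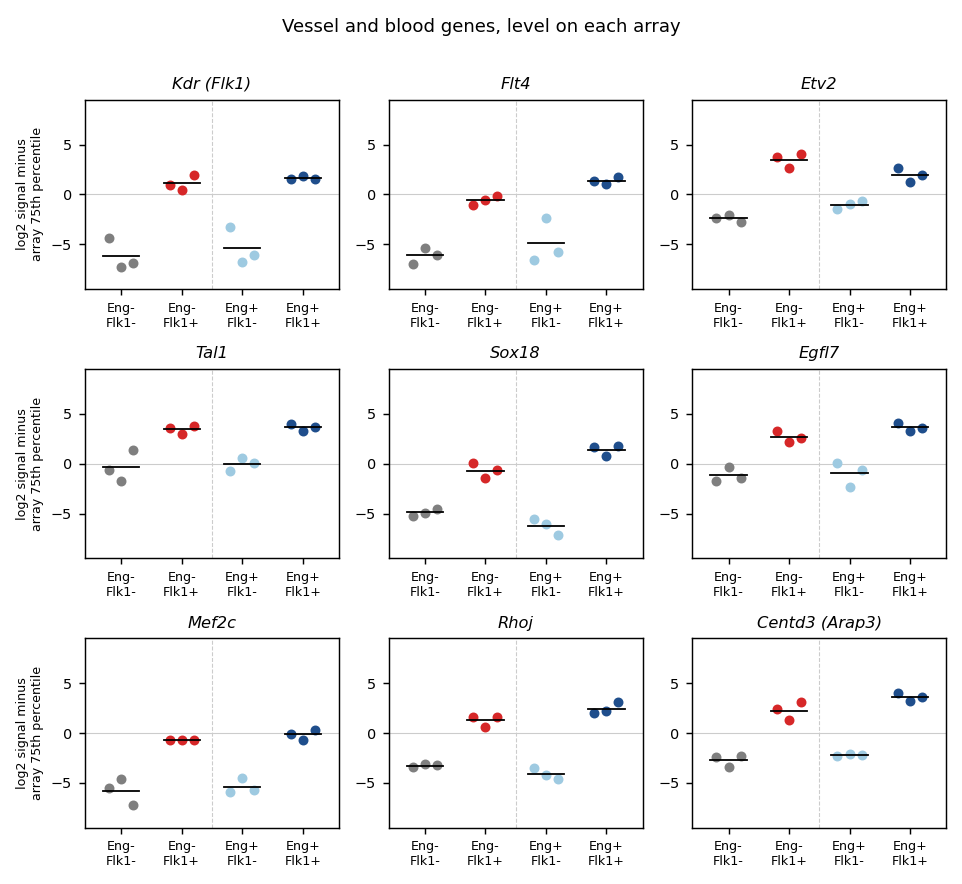
Level of 9 vessel and blood genes on each array (log2 signal minus the 75th percentile of the array), by sorted fraction; each point is 1 array and each bar the mean of 3. Eng-Flk1+ lies above Eng-Flk1- with no overlap in every panel, as for Kdr (0.47 to 1.96 against -7.28 to -4.41). All 377 genes that rose were free of overlap, so its absence in these called genes adds nothing to their calls.

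Receptors and small GTPase regulators of vessels gave 4 rises and 0 falls among 16 tested (median 1.31), beside 1.65% and 0.271% of all genes. The median was 0.24 with normexp background correction, with 3 rises, and 0.70 with median scaling. F2r, a thrombin receptor of endothelium and its precursors, lay at 0.85, 0.37 and 0.79 in Eng-Flk1+ and at -7.97, -8.05 and -7.22 in Eng-Flk1-. No Eng-Flk1- array passed the background flag, so the fold is a lower bound: F2r was at least 81.3-fold higher (limma adjusted p = 4.69e-05). S1pr1, named Edg1 on the array, binds sphingosine phosphate and steadies vessels. It was at least 12.3-fold higher (limma adjusted p = 0.00634). Centd3 (Arap3), a GTPase-activating protein, lay at 2.40, 1.27 and 3.07 against -2.44, -3.41 and -2.33. That rise of 4.97 ± 0.52 (limma adjusted p = 0.00156) was 5.85 among Endoglin-positive cells.

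Rhoj, a small GTPase of endothelium, lay at 1.64, 0.58 and 1.59 in Eng-Flk1+ and at -3.45, -3.12 and -3.25 in Eng-Flk1-. It rose by 4.54 ± 0.48 (limma adjusted p = 0.00177) and by 6.57 among Endoglin-positive cells. Its second probe showed no such change, with a difference of -0.05. Over the 6 arrays the Rhoj probe that rose was the gene most like Etv2 (Pearson r = 0.997), followed by Ggta1 and Spc25 (0.993 for both). Those most like Kdr were Dusp7 (0.998), the tetraspanin Tspan7 (0.997) and Yy1 (0.988). These correlations describe 6 arrays that fall into 2 separated fractions. The call of Tspan7 was lost without Eng-Flk1+ replicate 3 (limma adjusted p = 0.121), and Yy1 was not called (difference 2.86 ± 0.73, limma adjusted p = 0.0835).

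Signals of the BMP and TGF-beta family formed the next group. Bmp4, a ligand made by extraembryonic ectoderm and by extraembryonic mesoderm, lay at 2.68, 1.77 and 1.62 in Eng-Flk1+ and at -3.72, -1.44 and -3.23 in Eng-Flk1-. It rose by 4.82 ± 0.62 (limma adjusted p = 0.00474) and was the 1 of 19 ligands and antagonists that did, with 0 falling and a list median of -0.35. Its receptor Bmpr1a lay at 0.63, 1.28 and 1.04 against -2.93, -1.14 and -3.49, a rise of 3.50 ± 0.68 (limma adjusted p = 0.0300). Bmpr1a and Acvrl1 were the 2 of 21 receptors, Smads and Id targets that rose, and 0 fell. Their list median of 0.50 turned to -0.10 with median scaling, under which 0 of the 21 were called. The Bmpr1a call was also lost without Eng-Flk1+ replicate 3 (limma adjusted p = 0.111).

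A few genes of the allantois and extraembryonic mesoderm also rose. Foxf1a (now Foxf1), a forkhead factor that extraembryonic mesoderm needs, lay at 0.80, 1.00 and 1.43 in Eng-Flk1+ and at -3.98, -4.27 and -4.79 in Eng-Flk1-. The rise was 5.43 ± 0.75 (limma adjusted p = 0.00627). Twist1, a driver of mesenchymal character, lay at 0.07, -1.13 and -0.31 against -8.01, -6.34 and -6.03, where no array passed the background flag. It was at least 37.3-fold higher (limma adjusted p = 0.00355). With Bmp4 these were the 3 of 14 genes of allantois and extraembryonic mesoderm that rose (0 fell), with a list median of 0.31 that turned to -0.30 under median scaling. Twist1, which is in both lists, was also the 1 of 15 mesenchymal genes that rose (0 fell, median 0.95). Of 19 extracellular matrix genes, 1 rose: the proteoglycan versican, Vcan, of heart jelly, by 3.58 ± 0.75 (limma adjusted p = 0.0397; 0.152 without Eng-Flk1+ replicate 3). The median of that list was 1.16, and 0 fell. It was 0.56 with median scaling and 0.67 with normexp, and under either 0 of the 19 were called.

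Bmp4 and Foxf1a behaved otherwise where Endoglin was present. Bmp4 lay at 3.02, 3.50 and 3.68 in Eng+Flk1- and at 2.67, 2.12 and 1.5 in Eng+Flk1+, so the fraction without Flk1 was not the lower one. The difference of the Flk1 effects was 6.12 ± 0.88 (limma adjusted p = 0.0239). For Foxf1a the difference of the Flk1 effects was 7.53 ± 1.06 (limma adjusted p = 0.0229). Twist1 gave 4.92 ± 1.09, which did not pass (limma adjusted p = 0.115).

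Carriers made by visceral endoderm were lower with Flk1. Of 13 genes of lipid and serum transport tested, all had negative differences, 5 fell and 0 rose, and the median was -2.97 (0.271% of all genes fell). On the 6 arrays alone 1 of the 13 fell. Apoa1, the main protein of high-density lipoprotein, lay at 4.98, 3.48 and 6.08 in Eng-Flk1- and at 0.69, -2.29 and -2.25 in Eng-Flk1+. It fell by 6.13 ± 0.92 (limma adjusted p = 0.00904). Apoa4 lay at 4.66, 3.76 and 6.36 against 0.78, -0.84 and -0.84, a fall of 5.23 ± 0.75 (limma adjusted p = 0.00774). Ttr, the thyroid hormone carrier, lay at 0.20, 0.60 and 0.95 against -4.01, -3.17 and -3.30, a fall of 4.08 ± 0.52 (limma adjusted p = 0.00434). The others were Apoc2 (-4.42 ± 0.69) and Apob (-4.08 ± 0.85), whose call was lost without Eng-Flk1+ replicate 1 (limma adjusted p = 0.148).

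The carriers stood low in both Endoglin-positive fractions too. Their mean level lay between 1.69 and 2.25 on the Eng-Flk1- arrays, between -1.48 and -0.74 in Eng-Flk1+, between -0.90 and -0.35 in Eng+Flk1- and between -1.21 and -0.79 in Eng+Flk1+. Ttr differed by 0.14 between the Endoglin-positive fractions, and the difference of the Flk1 effects, -4.22 ± 0.73, did not pass (limma adjusted p = 0.0527). Afp, another yolk sac marker, passed the background flag on 0 of the 6 Endoglin-negative arrays. Amn, a receptor subunit of visceral endoderm, averaged -1.14 ± 0.70 on the Eng-Flk1- arrays and -1.79 ± 0.36 on the Eng-Flk1+ arrays (SD, n = 3 each). In sorted bulk samples such as these, fewer cells of a type and less RNA per cell cannot be told apart. Of 16 genes listed with endocytic receptors and lysosomal proteases 1 fell and 0 rose (median -1.46). It was Clic6, a chloride channel protein and so neither a receptor nor a protease (-4.70 ± 0.92, limma adjusted p = 0.0302; 0.0708 without Eng-Flk1+ replicate 2), and its second probe differed by -0.76. Of 12 transcription factors of visceral endoderm 0 passed either way (median -0.97).

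Globins and their partners were lower with Flk1. Of 17 genes listed as primitive erythroid 5 fell and 0 rose (median -1.40), where 0.271% of all genes fell. Hba-a1, an alpha globin, lay at 8.51, 7.85 and 8.79 in Eng-Flk1- and at -2.31, -1.93 and 0.58 in Eng-Flk1+. That fall of 9.60 ± 1.11 (limma adjusted p = 0.00293) was the largest of those with signal above background on all 6 arrays, and Hba-a2 followed at -7.68 ± 0.79. Hba-a1 and Hba-a2 are near-identical copies, as are the beta globins, so signal may be shared between their probes. Eraf, which stabilises free alpha globin, fell by 5.24 ± 0.78, and Hbb-b1 (now Hbb-bt) by 4.06 ± 0.40. Hba-x and Hbb-y, taken as markers of primitive red cells, were not called. Hba-x averaged 1.04 ± 3.11 on the Eng-Flk1- arrays and -4.10 ± 2.70 on the Eng-Flk1+ arrays (SD, n = 3 each). Hbb-y averaged 0.11 ± 1.41 and -1.64 ± 0.26. Whether the globin RNA came from primitive red cells was not tested.

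Hbb-bh1, an embryonic beta globin of the first red cells, was lower with Flk1 in both settings. It lay at 2.56, 4.05 and 4.87 in Eng-Flk1- against -0.45, -1.44 and -1.88 in Eng-Flk1+, a fall of 5.08 ± 0.61 (limma adjusted p = 0.00347). Among Endoglin-positive cells it fell by 4.10. Hbb-b1 lay at 6.05, 5.46 and 5.51 in Eng-Flk1- and between 1.12 and 2.24 on the other 9 arrays, and the difference of its Flk1 effects was -3.58 ± 0.57 (limma adjusted p = 0.0344).

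Epiblast and neural genes were lower as well. Pou5f1, the pluripotency factor Oct4, lay at 4.57, 4.30 and 5.89 in Eng-Flk1- and at 2.27, 1.83 and 1.25 in Eng-Flk1+. It fell by 3.14 ± 0.58 (limma adjusted p = 0.0233) and was the 1 of 13 epiblast genes that did, though 12 of the 13 had negative differences (median -1.19, 0 rose). On the 6 arrays alone 0 of the 13 fell. Sox2 averaged 0.19 ± 1.28 and -5.98 ± 2.43 (SD, n = 3 each) and passed the background flag on 1 Eng-Flk1+ array. Of 13 neuroectoderm genes 2 fell and 0 rose (median -0.90), and on the 6 arrays alone 1 fell. Sp8, a zinc finger factor of the anterior neural plate, lay at 2.08, 2.08 and 4.15 against -4.85, -4.92 and -5.19, a fall of 7.76 ± 1.40 (limma adjusted p = 0.0211). Gbx2, which sets the border of midbrain and hindbrain, fell by 4.0 ± 0.75 (limma adjusted p = 0.0245). Without Eng-Flk1+ replicate 3 the calls of Pou5f1, Sp8 and Gbx2 were lost (limma adjusted p = 0.110, 0.0853 and 0.110).

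Epithelial proteins fell in a small number. Of 22 junction, keratin and protease genes 3 were called lower, Cldn23 among them, and 0 higher. The list median was -1.16, and 0.271% of all genes were called lower. On the 6 arrays alone 1 of the 22 was called lower. Prss8, a membrane serine protease, lay at 0.91, -1.29 and 2.66 in Eng-Flk1- and at -4.2, -3.03 and -5.21 in Eng-Flk1+. It fell by 4.91 ± 0.92 (limma adjusted p = 0.0236) and differed by -4.53 among Endoglin-positive cells (limma adjusted p = 0.0944). St14, the protease that Prss8 acts with, fell by 6.09 ± 1.02 on 1 probe, while its other probe differed by 0.72. Cldn23, a protein of tight junctions, passed the background flag on no Eng-Flk1+ array and was at least 15.8-fold lower there. It was tested only because all 3 Eng-Flk1- arrays passed the flag, as no other fraction did in full, so its call is no support for the other falls. Among the 12 largest falls Rnf32, a ring finger protein, lay at -1.77, -0.27 and 3.86 against -6.08, -5.70 and -5.63. The other 2 outside the lists were Tyw3 (-5.01 ± 0.99) and Lrmp (-4.78 ± 0.89). Without 1 Eng-Flk1+ array the calls of Prss8, St14, Rnf32, Tyw3 and Lrmp were lost (limma adjusted p up to 0.109, 0.0635, 0.0723, 0.101 and 0.0840).

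Named after their values were seen, the metallothioneins and Trap1a fell with Flk1 in both settings. Mt2, a metal-binding protein, lay at 5.28, 4.25 and 5.65 in Eng-Flk1- and at 2.27, 1.24 and 0.69 in Eng-Flk1+, a fall of 3.66 ± 0.55 (limma adjusted p = 0.00897). Among Endoglin-positive cells Mt2 fell by 6.15. Mt1, its close paralogue, fell by 3.01 ± 0.45 and by 2.66, and its second probe differed by -0.53. Trap1a, a tumour rejection antigen of the X chromosome, lay at 3.90, 2.79 and 4.02 against -1.24, -8.39 and -6.50. It fell by 8.95 ± 1.55 (limma adjusted p = 0.0178) and among Endoglin-positive cells it fell by 11.16, where the Eng+Flk1- arrays lay at 4.88, 4.21 and 5.09. Trap1a passed the background flag on 1 Eng-Flk1+ array, and its call was lost without Eng-Flk1+ replicate 3 (limma adjusted p = 0.0805).

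**Figure D2:**
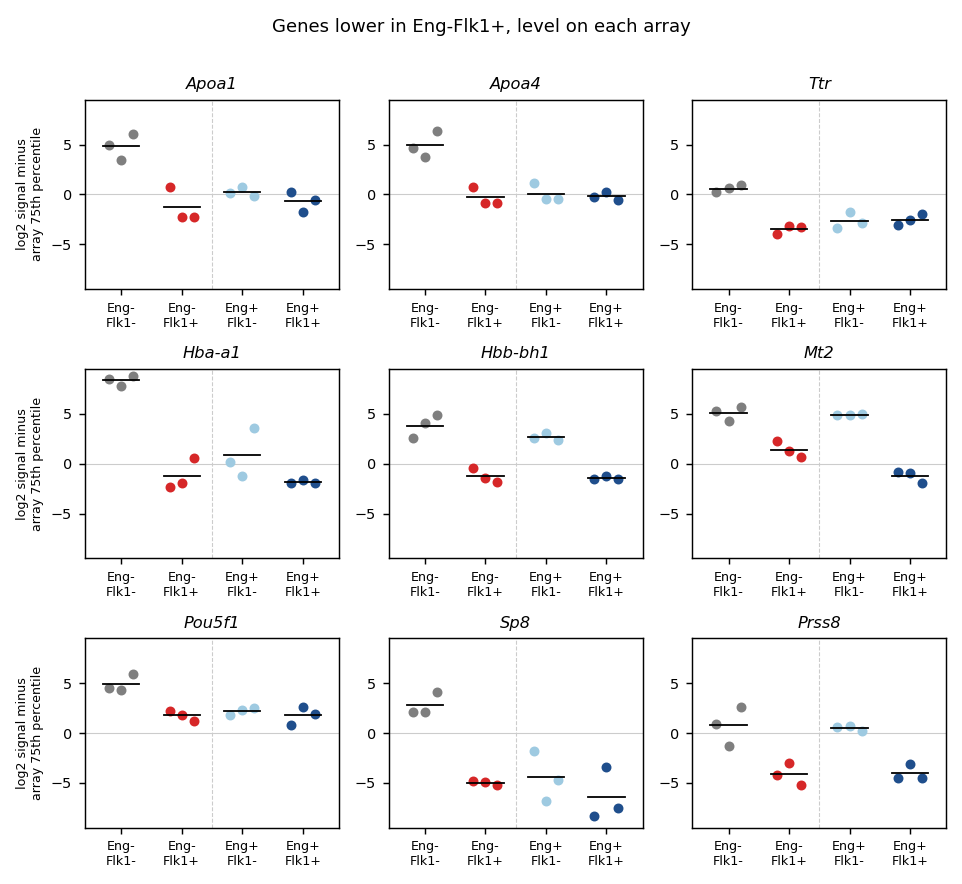
Level of 9 genes lower in Eng-Flk1+ on each array (log2 signal minus the 75th percentile of the array), by sorted fraction, with the mean of 3 as a bar. Apoa1, Apoa4, Ttr and Hba-a1 were highest in Eng-Flk1-, while Mt2 and Hbb-bh1 were high in both fractions without Flk1.

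Several of the largest rises were of genes that most cells use. Dad1, part of the oligosaccharyltransferase that adds sugar chains to proteins as they are made, lay at 3.23, 2.74 and 3.34 in Eng-Flk1+ and at -4.09, -3.60 and -3.25 in Eng-Flk1-. It rose by 6.75 ± 0.40 (limma adjusted p = 4.69e-05) and kept its call with the slide as a block, at 6.88 ± 0.64. It was the 1 of 16 oligosaccharyltransferase and signal peptidase genes that rose (0 fell, median 1.05). Polg, the catalytic subunit of the mitochondrial DNA polymerase, lay at 2.68, 2.12 and 2.12 against -3.32, -3.21 and -3.90. That was a rise of 5.79 ± 0.40 (limma adjusted p = 0.000177), beside one of 5.91 ± 1.09 for Polg2, its accessory subunit, which passed the background flag on 1 Eng-Flk1- array and lost its call without Eng-Flk1+ replicate 3 (limma adjusted p = 0.0958). Both belong to a list of 10 genes of mitochondrial DNA, of which 2 rose and 0 fell. The median of that list, 0.36, turned to -0.25 with median scaling.

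Genes of protein turnover were among the 12 largest rises measured on all 6 arrays. Otub1, a deubiquitinase, lay at 3.13, 1.96 and 2.85 against -0.97, -5.29 and -4.30, but its second probe differed by -0.50. Dscr2 (now Psmg1), which helps to assemble proteasomes, rose by 5.87 ± 1.09. Of 44 proteasome genes 3 rose and 0 fell, beside 1.65% and 0.271% of all genes. The 3 were the activator subunit Psme2 (5.19 ± 1.06), Psmb5 (3.13 ± 0.65) and Psma2 (2.46 ± 0.46). The list median of 0.51 turned to -0.09 with median scaling, under which 0 of the 44 were called. Tmem88 (5.24 ± 0.87), an inhibitor of Wnt signalling, Btbd1 (5.47 ± 0.98) and Tspan7 (5.87 ± 1.17) were also among the 12. Without 1 Eng-Flk1+ array the calls of Otub1, Dscr2, Psme2, Psmb5, Psma2, Tmem88 and Btbd1 were lost (limma adjusted p up to 0.140, 0.0903, 0.123, 0.150, 0.101, 0.0682 and 0.0859).

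Mitochondrial genes rose in small number across 2 lists. Of 75 mitochondrial ribosomal proteins 6 rose and 0 fell, beside 1.65% of all genes that rose. Positive differences were found for 53, beside 45.6% of all genes. The list median was 1.00, or 0.40 with median scaling and 0.59 with normexp. Mrpl30 lay at 1.55, 0.40 and 1.61 in Eng-Flk1+ and at -3.98, -4.92 and -4.12 in Eng-Flk1-, a rise of 5.53 ± 0.65 (limma adjusted p = 0.00322). The other 5 were Mrpl41, Mrpl21, Mrpl37, Mrpl33 and Mrpl24, with rises from 2.95 to 5.88, and the second probe of Mrpl33 differed by -0.96. Of 76 genes of the respiratory chain and ATP synthase 3 rose and 0 fell: Ndufv2 (5.42 ± 0.69), Ndufa3 (5.11 ± 0.77) and Cox5a (4.76 ± 0.99). The median of that list, 0.51, turned to -0.10 with median scaling. The 77 cytosolic ribosomal proteins had 0 calls either way (median -0.15, turning to 0.41 after quantile normalization). On the 6 arrays alone 2, 2 and 0 members of the mitochondrial ribosomal, respiratory and proteasome lists rose. Leaving out 1 Eng-Flk1+ array ended the calls of Cox5a (limma adjusted p up to 0.148) and of the 5 Mrpl genes other than Mrpl30 (0.0527 to 0.147).

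Many of the genes that rose were dim in Eng-Flk1-. Of the 377, 118 passed the background flag on none of its arrays, 60 on 1, 36 on 2 and 163 on all 3. Leaving out genes known only by identifiers, the highest lower bounds belonged to Tspan14, a tetraspanin that guides a membrane protease (at least 138-fold higher), and Txndc12, a thioredoxin of the endoplasmic reticulum (at least 121-fold). Mkks, a chaperonin-like protein of the basal body (at least 83.1-fold), F2r, Rpo1-4, an RNA polymerase subunit (at least 65.4-fold), and Htatip (now Kat5), a histone acetyltransferase (at least 61.4-fold), followed. Tspan14 lay at 2.33, -0.14 and 2.1 in Eng-Flk1+ and at -6.09, -7.99 and -7.30 in Eng-Flk1-. These bounds use, for each Eng-Flk1- array, the dimmest probe that passed the flag. Under the alternatives the lowest log2 differences were 4.12 for Tspan14, 3.97 for Txndc12, 3.53 for Mkks, 3.37 for F2r, 3.01 for Rpo1-4 and 3.15 for Htatip. For the genes with bounds given elsewhere they were 2.67 for Pnrc1, 2.33 for Twist1, 2.32 for Crsp7 and 1.12 for Edg1. They were 0.94 for Snai1, 0.32 for Tpst1 and 0.13 for Hoxd1, and for Cldn23 the smallest in size was -1.79. Each is smaller in size than the bound of the main processing. The second probe of Rpo1-4 differed by 1.06.

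Whether the Flk1 difference depended on Endoglin was tested by the interaction, the Flk1 effect among Endoglin-negative cells minus that among Endoglin-positive cells. It was called for 63 of the 22844 genes (0.276%), 60 positive and 3 negative, and 60 of the 63 were also called among Endoglin-negative cells. The interaction contains the Endoglin-negative difference, so that overlap is in part built in. The lower signal of the Eng-Flk1- arrays and a dependence on Endoglin cannot be told apart here. Dad1 lay at 1.93, 1.08 and 1.57 in Eng+Flk1+ and at 2.13, 2.37 and 2.30 in Eng+Flk1-, so only the Eng-Flk1- arrays were low. Its interaction was 7.49 ± 0.57 (limma adjusted p = 0.00163). The same form held for Polg (4.99 ± 0.57), Mrpl30 (6.39 ± 0.92) and Ndufv2 (6.96 ± 0.97).

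Tpst1, which adds sulphate to tyrosines, ran in opposite directions. It was at least 4.38-fold higher in Eng-Flk1+ than in Eng-Flk1- (-3.21, -4.84 and -2.59 against -7.91, -8.11 and -6.58). Among Endoglin-positive cells it was lower with Flk1, at -5.35, -7.22 and -7.34 against -0.77, -0.66 and -0.46 (a difference of -6.0, limma adjusted p = 0.00896). The fitted Tpst1 interaction was 9.99 ± 1.02 (limma adjusted p = 0.00485), which is no measured size, since Tpst1 passed the background flag on 0 Eng-Flk1- arrays and only 1 with both proteins. Its call among Endoglin-negative cells was lost without Eng-Flk1+ replicate 3 (limma adjusted p = 0.0958). With the slide as a block the interaction was called for 0 genes by limma (1427 at an unadjusted p under 0.05), and it was called for 312 without Eng-Flk1- replicate 2 and for 26, 53 and 28 without Eng-Flk1+ replicates 1, 2 and 3.

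**Figure D3:**
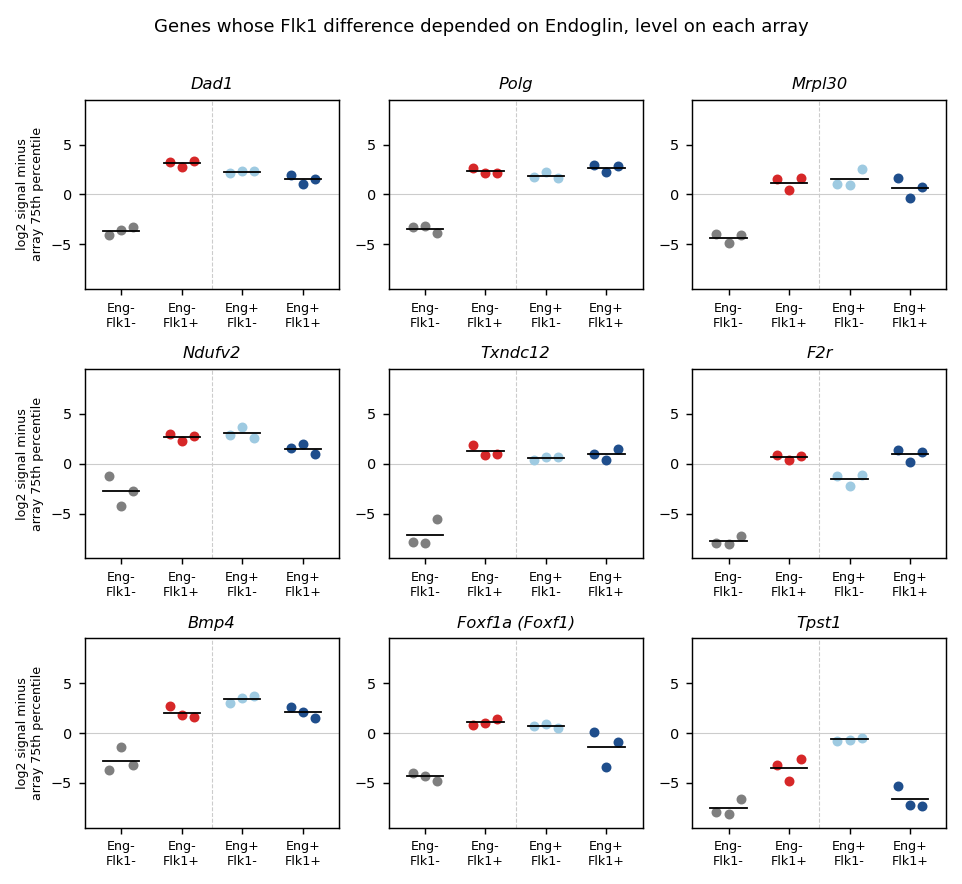
Level of 9 genes with a called interaction on each array (log2 signal minus the 75th percentile of the array), by sorted fraction, with the mean of 3 as a bar. For Dad1, Polg, Mrpl30 and Ndufv2 the 3 Eng-Flk1- arrays lie below the other 9, and for Tpst1 the fraction with Endoglin alone is the highest.

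Over the 377 genes that rose, the median difference was 4.45 among Endoglin-negative cells and 0.21 among Endoglin-positive cells, and 56.2% kept their sign, against 49.1% of all genes with a positive difference there. Over the 62 that fell, the medians were -4.0 and -0.52, and 74.2% kept their sign, against 50.9% of all genes with a negative difference. The Eng+Flk1- means of 295 of the 377 and 48 of the 62 lay on the Eng-Flk1+ side of the midpoint between the Endoglin-negative means. The Eng+Flk1+ means of 326 and 57 did. The part of the lower Eng-Flk1- signal in this was not tested. The Endoglin-negative and Endoglin-positive comparisons share no array, but they share 1 fit with 1 spread per gene, and a slide holds arrays of both.

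**Figure D4:**
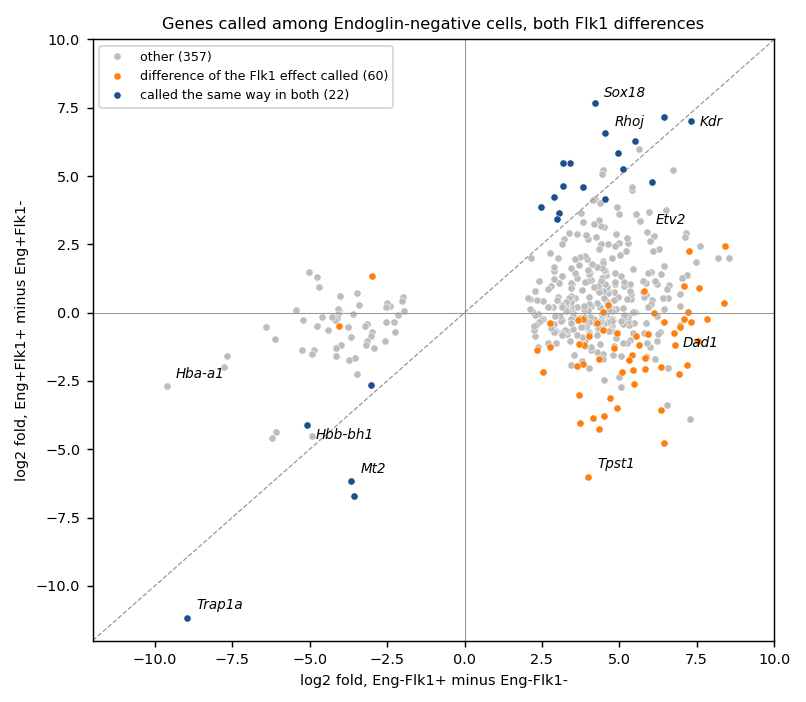
Log2 difference with Flk1 among Endoglin-positive cells (vertical) against that among Endoglin-negative cells (horizontal) for the 439 genes called among the latter, 1 point per gene, with the line of equality dashed. The 22 genes called in both have the same sign on both axes. Some lie near the line, as Kdr does (7.31 and 7.02), and others off it, as Sox18 does (4.2 and 7.68). Genes with a called interaction, as Dad1 (6.75 and -0.74), lie mostly near or below 0 on the vertical axis.

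The remaining lists held few or no calls, where 1.65% of all genes rose and 0.271% fell. Of 35 Hox genes Hoxd1 alone was called, at least 3.97-fold higher. It passed the background flag on the 3 Eng-Flk1+ arrays and on no other array, so it was tested only through the fraction where it is high, and its call adds nothing to that. The call was lost without Eng-Flk1+ replicate 1 (limma adjusted p = 0.132). Foxj1, a regulator of motile cilia, was the 1 of 12 definitive endoderm, node and organizer genes that rose (3.50 ± 0.60, limma adjusted p = 0.0171; 0.0638 without Eng-Flk1+ replicate 1). Of 15 cardiac mesoderm genes Mef2c alone rose. Of 27 tetraspanins Tspan7 and Tspan14 rose. No member passed among 18 genes of the primitive streak and nascent mesoderm, where Snai1, an inducer of mesoderm migration, was measured at least 9.15-fold higher (limma adjusted p = 0.0669). The same was true of 28 Wnt genes, 16 Fgf genes, 17 Notch genes and 54 guidance genes (ephrins, semaphorins, Slits and their receptors), with lowest p values for Lrp6, Fgf5, Hey1 and Sema4a in that order of lists. It held too for 15 integrins, 7 germ cell genes, 26 cell cycle genes, 18 genes of glucose use and 16 stress genes. In these lists the glucose transporter Slc2a3 came nearest to the threshold, with a difference of -3.47 ± 0.77 (limma adjusted p = 0.0518).

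Trophoblast, white blood cell and decidua markers were called in neither direction. Of 15 trophoblast genes 0 passed, with a mean level of -1.98 to -0.58 on the Eng-Flk1- arrays and of -1.75 to -1.33 on the Eng-Flk1+ arrays. The 10 white blood cell genes had mean levels of -2.55 to -1.55 and -2.08 to -1.51, and the 8 decidua genes tested had -1.19 to -0.56 and -1.31 to -1.19. Prl8a2, a prolactin of decidua, passed the background flag on 2 Eng-Flk1- arrays and on 0 Eng-Flk1+ arrays.

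**Figure D5:**
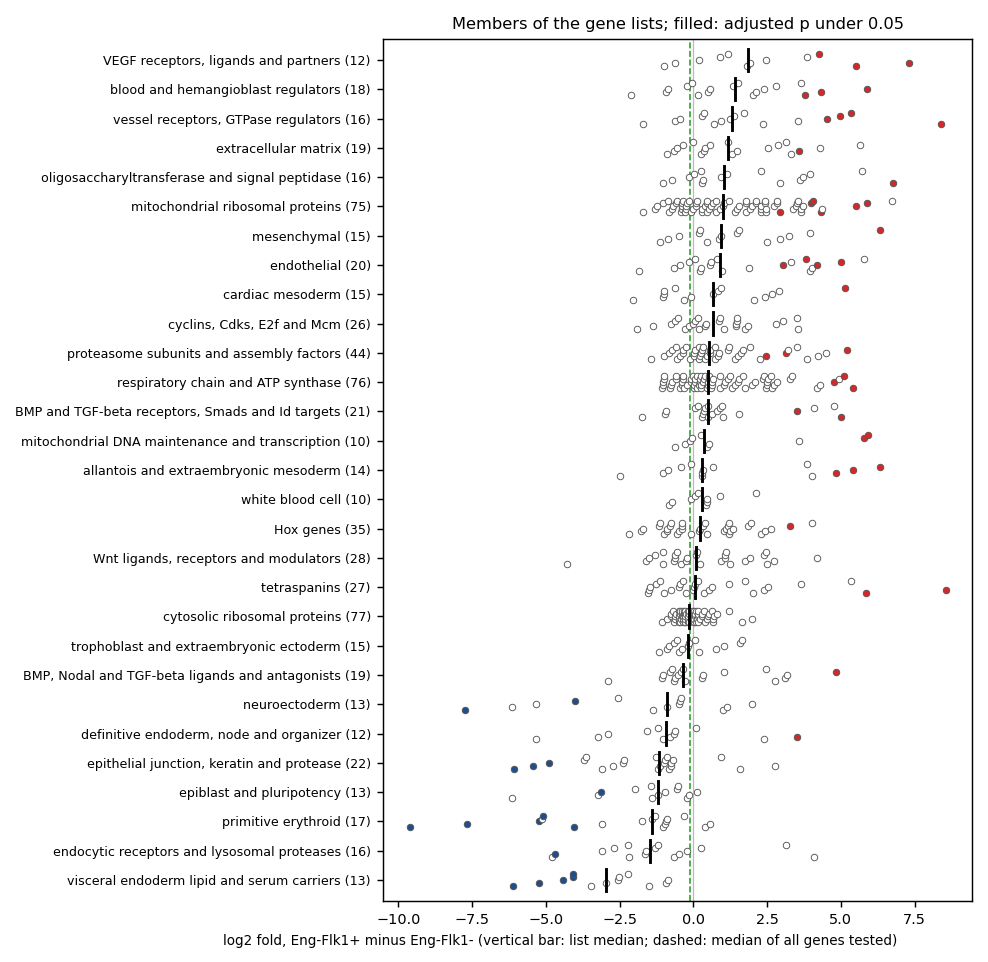
Log2 difference, Eng-Flk1+ minus Eng-Flk1-, of each tested member of 29 gene lists (tested members in brackets), with the list median as a bar and the median of all genes (-0.13) dashed; filled points passed an adjusted p under 0.05. Rises stand in the vessel, blood and mitochondrial lists, and falls in the carrier, erythroid, epiblast, neural and epithelial lists.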

How the data were processed

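Per the labels' protocols, cDNA was amplified by PCR before labelling. Per the file headers, the arrays were read with Agilent Feature Extraction 10.5.1.1, and the deposited processed signal is an intensity with background and spatial trends removed within each array, a substitute value for spots not above background, and no scaling between arrays. The deposited mean spot and background intensities served the normexp alternative (offset 50). From the processed signal, log2 levels were computed: 1639 control spots and outlier flags were left out, the 75th percentile of the array was subtracted, spots of a probe were averaged, and each of 27745 gene names took its brightest probe (of 41174). No spot was saturated.

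All 12 arrays entered one limma model (3.58.1, in R 4.3.3) of 4 group means, leaving 8 residual degrees of freedom, with Benjamini-Hochberg adjustment over all genes. The model takes the spread of a gene as equal in all 4 fractions. The median SD was 1.02 in Eng-Flk1- and 0.57 to 0.67 in the others. Standard errors may therefore be too small for genes that spread most in Eng-Flk1-, as Rnf32 does (SD 2.91 there, standard error 1.11). Missing values (166 genes) were left out, not imputed. An exact test of 3 against 3 arrays cannot go below p = 0.1 and was not used. The authors' normalized value table was not used here. Alternatives changed the samples, background, scaling, filter, probe rule, slide and replicate terms. The 39 gene lists and the named genes were chosen with earlier results of these data known. Named genes are Kdr, Eng, Etv2, Ttr, Pou5f1, the 12 largest called rises and falls measured on all 6 arrays without overlap, the 6 highest bounds each way, called list members (at most 6; where none, the 2 lowest p), the 6 lowest p of the interaction, and the 3 genes best correlated with Kdr and with Etv2, passing over bare identifiers. Probe positions are mm8. RefSeq GRCm38.p6 gave current symbols (14761 genes matched by accession) and promoters. The fit was tested on simulated data.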

Additional observations from a re-analysis of the deposited data

Results flagged for a closer look

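For 16 named genes the Flk1 effect differed between Endoglin-negative and Endoglin-positive cells by limma's test of that difference over all genes, and each is given as the first effect minus the second on the log2 scale. Adjusted p-values ran from 0.00163 (Dad1) to 0.0424 (Rpo1-4), with 3 arrays in each of the 4 fractions. For 7 genes no Eng-Flk1- array passed the background flag, so the fitted values rest on signals at or near background there and are no measured sizes. In alphabetical order these were Crsp7 (now Med26) at 7.48 ± 0.75 (SE), F2r at 5.97 ± 0.70, Mkks at 8.08 ± 0.91, Pnrc1 at 7.99 ± 0.75, Rpo1-4 at 7.32 ± 1.22, Tpst1 at 9.99 ± 1.02 and Txndc12 at 8.0 ± 0.92. Tpst1 also passed the flag on 1 of 3 Eng+Flk1+ arrays. In Eng-Flk1+ the 3 arrays lay at 0.45, -0.02 and -0.31 for Pnrc1, a nuclear receptor coactivator. For Crsp7, a Mediator subunit, they lay at -0.14, -0.48 and -0.80. Their lower bounds against Eng-Flk1- were 52.6-fold and 36.9-fold.

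Partly detected in Eng-Flk1- were Rbm19, a nucleolar protein of ribosome making (8.57 ± 0.91, 1 of 3 arrays), and Wdr74 (8.07 ± 0.78, 2 of 3 arrays). Detected on all arrays were Foxf1a (7.53 ± 1.06), Dad1 (7.49 ± 0.57), Ndufv2 (6.96 ± 0.97), Mrpl30 (6.39 ± 0.92), Bmp4 (6.12 ± 0.88) and Polg (4.99 ± 0.57). Of the 16, Hbb-b1 alone had a negative difference (-3.58 ± 0.57).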

How the results depend on the processing

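Kdr kept its direction under all 20 alternatives that gave a value, with differences of 3.64 (normexp) to 8.20 and, with 1 array left out, 6.77 to 8.20. Its call was lost with the slide as a fixed block and within slide 1 (7.10 in both), and no value was had when all 6 arrays had to pass the background flag. The count of called genes was 439, of which 164 were also called on the 6 arrays alone. It was 240 on the 6 arrays alone (229 higher, 11 lower), 255 with normexp (185 higher, 70 lower), 204 with all 6 arrays required, 16 with the slide as a fixed block, 29 within slide 1, 1062 with the slide as a random block and 168 with array quality weights, and 169 to 1001 with 1 array left out. Median scaling, quantile normalization, no filter, kept outlier spots, the mean of probes, updated names and an intensity trend gave 362 to 655. The interaction count of 63 became 39 with normexp, 33 with median scaling, 40 with quantile normalization, 21 with all 6 arrays required, 0 with the slide as a fixed block and 26 to 312 with 1 array left out. The cause of these changes was not tested.

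Of the 82 named genes called, 0 reversed under any alternative. On the 6 arrays alone 43 kept their calls and 39 lost them. With the slide as a fixed block 8 kept them, within slide 1 15, with normexp 64 of 81, with median scaling 64 and with quantile normalization 78. With the mean of all probes Fgfr1 (0.47) and Gata4 (1.05), neither of them called, turned positive (for Fgfr1 3 of 4 probes and for Gata4 1 of 2 were higher in Eng-Flk1+). The replicate numbers shared by the fractions were not taken as pairs. Deviations of same-numbered arrays correlated at 0.01, -0.03 and -0.02, and those of differently numbered arrays at -0.03 to 0.05. These values cannot show how the samples were sorted. The replicate block gave 312 calls and an interaction count of 26. Signal over background also limits the rises: 118 of the 377 genes that rose passed the background flag on 0 Eng-Flk1- arrays, and a further 60 on 1.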
